A study of Homo sapiens with 4 samples.

Results

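SNHG1, a long non-coding RNA gene that carries small nucleolar RNAs (snoRNAs) in its introns, lies head to head with SLC3A2 on chromosome 11, and both sit in a block of housekeeping genes. The neighbourhood was defined as 9 listed genes (SNHG1, SLC3A2, WDR74, STX5, NXF1, TMEM223, TMEM179B, TAF6L and POLR2G), with every ATAC-seq peak that overlapped the 3 kb on either side of one of their annotated transcript starts, plus every other peak of chr11:62700000-63000000 (GRCh38), a stretch of 300 kb. It held 23 of 47610 peaks in the control list and 20 of 42682 peaks in the sgSNHG1 list. Of these, 10 peaks of each list lay at a listed gene, 13 control and 10 sgSNHG1 peaks lay elsewhere in the 300 kb, and 0 peaks of either list had to be added from outside it.

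ATAC-seq uses the Tn5 transposase to insert adapters into accessible chromatin, so that open promoters and enhancers collect fragments. It was performed in SK-N-BE(2)C, an established MYCN-amplified neuroblastoma cell line, with 2 libraries labelled control (wild-type genotype, non-targeting guide RNA) and 2 labelled sgSNHG1 (Cas9 with a pair of guide RNAs against SNHG1). Per the study's methods, the SNHG1-depletion cells were transfected, selected with puromycin and grown from single sorted cells. The paper describes the control as a single clone with a non-targeting guide and does not say how that clone was sorted. Both groups thus rest on clones, and clone and guide cannot be told apart. The guides were designed against different stretches around the SNHG1 locus, and their match positions are not reported here. The authors combined the replicates before calling peaks. Every value below therefore comes from 1 pooled list per group, with no spread over replicates, and the conditions were compared without a test.

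The depth behind a peak is its pileup, the number of fragments over its summit. The median pileup of the neighbourhood was 30 in control and 28.5 in sgSNHG1, against 24 and 20 over all peaks. Fold enrichment sets that pileup against the background that its own list has around the peak. Each log2 ratio below is sgSNHG1 over control, and its standard error (SE) and 95% interval cover the Poisson counting error of the 2 pileups only. As a check of the cell line, 5 genes of sympathetic neuronal identity were looked up. GATA3, HAND2, ISL1 and DBH had a promoter peak in both lists, and the fifth is not reported here, so these 4 are a choice made after their values were seen. Their peaks had fold enrichments from 5.05 to 9.20 in control and from 4.54 to 7.45 in sgSNHG1.

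The listed genes serve basic steps of gene expression and membrane traffic. SNHG1 is spliced from a transcript whose introns release box C/D snoRNAs, which guide the methylation of ribosomal RNA. SLC3A2 (CD98 heavy chain) brings amino acid transporter light chains of the SLC7 family to the cell surface, and WDR74 takes part in ribosome assembly. POLR2G is a subunit of RNA polymerase II, TAF6L belongs to the SAGA histone acetyltransferase complex, NXF1 is the main export receptor of mRNA, STX5 is a SNARE of traffic between endoplasmic reticulum and Golgi, TMEM223 is a mitochondrial membrane protein, and TMEM179B is a membrane protein.

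The promoter shared by SNHG1 and SLC3A2 stayed accessible in sgSNHG1, but its called peak was narrower and ended short of the annotated SNHG1 start. SNHG1 (ENSG00000255717.9, minus strand, chr11:62851978-62855953) and SLC3A2 (ENSG00000168003.19, plus strand, chr11:62856004-62888880) start 51 bp apart. The control peak spanned chr11:62855827-62856251, a width of 425 bp, and the sgSNHG1 peak spanned chr11:62855965-62856134, a width of 170 bp. Their fold enrichments were 5.71 in control, from a pileup of 36, and 6.04 in sgSNHG1, from a pileup of 27. The log2 ratio was 0.08 (SE 0.37, interval -0.64 to 0.80), so a difference in height was not detectable at this depth.

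Both edges of the peak moved inwards. In control the peak covered 127 bp of the SNHG1 gene, the 50 bp between the starts and 248 bp of SLC3A2. In sgSNHG1 it covered 0 bp of SNHG1, 39 bp between the starts and 131 bp of SLC3A2, and its edge lay 12 bp upstream of the SNHG1 start. Of 26 annotated SNHG1 transcript starts, 14 lay under the control peak and 0 under the sgSNHG1 peak. Of 21 SLC3A2 transcript starts, 7 lay under the control peak and 4 under the sgSNHG1 peak. The summit moved by 59 bp towards SNHG1, from 109 bp to 50 bp upstream of its start, while the peak edge on that side moved away from the gene.

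Most peaks were narrower in the sgSNHG1 list, and the narrowing here has to be read against that. A peak edge lies where the signal falls under the calling threshold, so bases past it are not a measured 0. The sgSNHG1 list also had lower pileups, with a median of 20 against 24 in control over all peaks. The part of depth in the narrowing was not tested. A pair is a control peak and an sgSNHG1 peak that are each other's best overlap. Of 31663 pairs in the genome, 79.8% were narrower in sgSNHG1, with a median log2 ratio of width of -0.42. The SNHG1 and SLC3A2 pair had a log2 ratio of width of -1.32, and 12.1% of all pairs narrowed at least as much. The 1711 pairs at divergent promoters, whose start sites on opposite strands lie within 1000 bp, had a median of -0.34, and 83.6% of them were narrower. Among the 9 pairs at listed genes 7 were narrower, with a median of -0.49.

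The DNA at the SNHG1 edge of the peak is shown because it holds the stretch that was under the control peak only. It is the SNHG1 strand of the RefSeq promoter window (GRCh38.p14) at chr11:62855836-62856003, cut where the first exon of SLC3A2 begins. Capitals mark the 39 bases that were inside the sgSNHG1 peak, and the lower-case bases were inside the control peak only.
SNHG1 promoter: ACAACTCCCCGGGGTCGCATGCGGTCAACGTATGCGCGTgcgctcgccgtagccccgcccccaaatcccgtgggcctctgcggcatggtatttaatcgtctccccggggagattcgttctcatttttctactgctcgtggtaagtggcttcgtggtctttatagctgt
The capitals include 1 match to the palindromic core CGCATGCG of NRF1, a factor of housekeeping and nuclear-encoded mitochondrial genes, at chr11:62855981-62855988, 28 bp upstream of the SNHG1 start. A second match lay at chr11:62856072-62856079, within the SLC3A2 first exon and 119 bp upstream of the SNHG1 start. Both matches were under the peak of either list. The core occurs in 2.02% of 35116 RefSeq promoter windows, and 0.137% hold it 2 or more times. These are full windows, as long as the uncut SNHG1 window at chr11:62855836-62856135, which holds both matches.

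**Figure D1:**
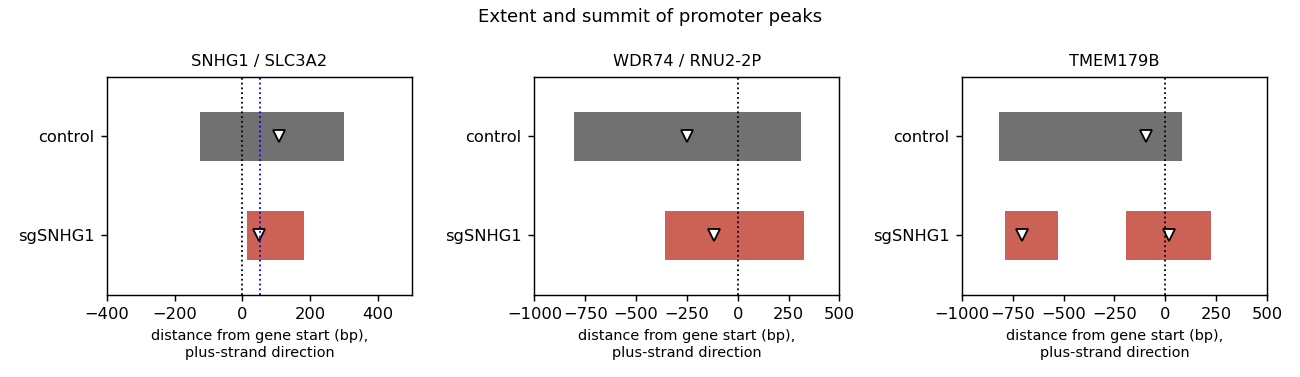
Extent of peaks (bars) and summits (triangles) at 3 promoters in the control list (grey) and the sgSNHG1 list (red), with distance in bp from the gene start (black dotted line; the blue dotted line is the SLC3A2 start) in the plus-strand direction. The SNHG1 and SLC3A2 peak went from 425 to 170 bp and cleared the SNHG1 start by 12 bp. The WDR74 / RNU2-2P peak went from 1115 to 685 bp, and the TMEM179B peak became 2 peaks.

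The local background at the shared promoter was also lower in sgSNHG1. MACS2 takes this background from fragments around the peak, and here it is divided by the smallest background of its own list so that both lists can be compared. It went from 2.48 to 2.11, for a log2 ratio of -0.23, and 15.6% of all pairs were as low. The pileup scaled in the same way had a log2 ratio of -0.06. The rise of 0.08 in fold enrichment therefore reversed to a fall when the local background was left out, and both values were smaller than the counting error.

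Within the body of SNHG1 no separate peak was called. The gene is 3976 bp long, of which 127 bp lay under a control peak and 0 bp under an sgSNHG1 peak. The annotation holds 7 snoRNA records in it (SNORD25, SNORD26, SNORD27, SNORD28, SNORD30 and a pair named SNORD22), and 0 of 7 overlapped a peak in either list. From the 3′ end of SNHG1 the next peak, that of WDR74, was 9858 bp away in control and 9844 bp away in sgSNHG1.

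SLC3A2 had a second promoter peak at a downstream start, and it kept its width. It spanned chr11:62880752-62881528 in control and chr11:62880761-62881549 in sgSNHG1, over an exon of the gene, with widths of 777 and 789 bp. The fold enrichments were 5.60 and 6.48 from pileups of 30 and 31, a log2 ratio of 0.21 (SE 0.37, interval -0.51 to 0.93). As a result the higher SLC3A2 peak was the shared one in control and the downstream one in sgSNHG1, although neither order exceeds the counting error.

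Between these 2 promoters the sgSNHG1 list held an intronic SLC3A2 peak that the control list lacked. It lay at chr11:62862755-62862885 and had 20 fragments over its summit, 5.57-fold enriched. It is printed on the plus strand of GRCh38 because it is a list-specific site in the gene that shares its promoter with SNHG1, with the 21 bases centred on the summit in capitals.
SLC3A2 sgSNHG1-only peak: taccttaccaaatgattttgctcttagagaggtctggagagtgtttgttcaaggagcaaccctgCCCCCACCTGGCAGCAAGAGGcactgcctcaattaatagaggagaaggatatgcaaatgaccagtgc
It holds no match to any of the 8 motifs searched in promoters below. List-specific peaks of both lists were found in the neighbourhood, and 1 of the control-only ones is not reported here, so no direction can be read from this peak alone. A peak missing from a list fell under the calling threshold there, which is not a measured 0.

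The lowest ratio of the neighbourhood was at WDR74, the next gene along from SNHG1, and not at the promoter shared by SNHG1 and SLC3A2. The peak at the upstream start of WDR74 (ENSG00000133316.16, minus strand, chr11:62832342-62841809) lay 14.4 kb from the SNHG1 start, measured to the control summit. It spanned chr11:62841006-62842120 in control and chr11:62841450-62842134 in sgSNHG1. Fold enrichment went from 9.12, with 79 fragments over the summit, to 5.87 in sgSNHG1, with 34. The log2 ratio was -0.64 (SE 0.30, interval -1.22 to -0.06), the single pair of the 17 in the neighbourhood whose interval left out 0.

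Among all pairs of the genome such a value was uncommon but not rare. A ratio at least as low was found for 1403 of 31663 pairs (4.43%) and for 640 of 16424 promoter pairs (3.90%). Counted in SE units, 1.07% of all pairs were as low. With the scaled pileup the log2 ratio was -0.86, and 3.06% of all pairs were as low.

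The called WDR74 peak no longer covered its low-coordinate flank in sgSNHG1. Its width went from 1115 to 685 bp, of which 444 bp were lost at the low end while the other end gained 14 bp. The summit moved by 132 bp, from an intron of WDR74 into an exon annotated to both WDR74 and RNU2-2P. RNU2-2P (ENSG00000222328.1, chr11:62841619-62841809) is a U2 small nuclear RNA record inside the peak. U2 has near-identical copies in the genome and the authors removed multiply mapped reads, so coverage over this stretch is uncertain in both lists. Of 15 annotated WDR74 transcript starts, 1 lay under the peak in each list, at the base where the RNU2-2P record ends. The peak therefore cannot be assigned to WDR74 rather than to RNU2-2P. The next WDR74 start was 626 bp from the control peak and 1070 bp from the sgSNHG1 peak.

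The bases around the new edge are shown to locate the lost flank. They are on the plus strand of GRCh38 at chr11:62841300-62841568, within WDR74, where capitals mark the 119 bases that were inside the sgSNHG1 peak. The lower-case bases were inside the control peak only.
WDR74 peak edge: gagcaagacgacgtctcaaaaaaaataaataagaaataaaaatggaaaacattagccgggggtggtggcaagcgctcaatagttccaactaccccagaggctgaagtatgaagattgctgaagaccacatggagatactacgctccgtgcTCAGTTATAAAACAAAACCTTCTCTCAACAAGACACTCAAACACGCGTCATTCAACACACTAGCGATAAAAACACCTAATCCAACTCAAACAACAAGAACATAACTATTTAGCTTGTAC
The stretch had a GC content of 40.5%, against 58.3% in the SNHG1 stretch printed above, and it held 1 match to TATAAA, in the capitals.

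The local background was lower in sgSNHG1 at WDR74 too. Scaled as above it went from 3.52 to 2.89, for a log2 ratio of -0.29, and 10.5% of all pairs were as low. The WDR74 and SNHG1 pairs were the 2 lowest of the 17 pairs in this measure, and the other 7 pairs at listed genes ran from 0.03 to 0.24. The background of a peak includes fragments of the peak itself. Its part in the change at WDR74 was not tested.

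STX5, NXF1 and the 2 small transmembrane protein genes, the next genes on the WDR74 side, showed ratios close to 0. The peak at the STX5 start (ENSG00000162236.13, minus strand), which also lies within 3 kb of a WDR74 start and of the starts of STX5-DT and TEX54, spanned chr11:62831427-62832488 in control and chr11:62831563-62832546 in sgSNHG1. Fold enrichments were 5.99 and 5.93 from pileups of 38 and 33, a log2 ratio of -0.01 (SE 0.34). At 1062 and 984 bp it kept most of its width. STX5 is thus the neighbour whose ratio was nearest to 0.

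At the NXF1 start (ENSG00000162231.14, minus strand) the peak spanned chr11:62805143-62805821 in control and chr11:62805293-62805775 in sgSNHG1. The fold enrichment was 8.44 and 7.37 from pileups of 38 and 31, a log2 ratio of -0.20 (SE 0.35). Here the direction depended on the scale, since the local background was higher in sgSNHG1 by 0.24 and the scaled pileup had a log2 ratio of 0.06.

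A peak just past the 3′ end of NXF1, at the TMEM223 start (ENSG00000168569.8, minus strand) and within 3 kb of NXF1 and TMEM179B starts, was the weakest pair of the listed genes. It spanned chr11:62791834-62792117 in control and chr11:62791820-62792119 in sgSNHG1. The fold enrichment was 4.52 and 4.80 from pileups of 23 and 21, a log2 ratio of 0.09 (SE 0.44). It was 1 of the 2 pairs at listed genes that did not narrow, with widths of 284 and 300 bp.

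At TMEM179B (ENSG00000185475.11, plus strand) the peak split. The control peak of 899 bp at chr11:62786584-62787482, which runs from an exon of TAF6L to the TMEM179B start, had a fold enrichment of 6.52 (pileup 37). The sgSNHG1 list held a peak of 417 bp at chr11:62787211-62787627, with a fold enrichment of 5.98 (pileup 28), and a second one of 263 bp at chr11:62786612-62786874, with a fold enrichment of 5.02 (pileup 21). The log2 ratio of the best-overlapping pair was -0.12 (SE 0.36). Its log2 ratio of width was -1.11, which counts the larger of the 2 sgSNHG1 peaks alone.

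The 2 genes of transcription, TAF6L and POLR2G, had the highest ratios among the listed genes. The TAF6L peak (ENSG00000162227.8, plus strand) spanned chr11:62771223-62771738 in control and chr11:62771242-62771690 in sgSNHG1. Its fold enrichment was 7.72 and 9.26, both from a pileup of 41, a log2 ratio of 0.26 (SE 0.32). A weaker peak upstream of TAF6L, at chr11:62769738-62769975, was in the control list only, with a fold enrichment of 4.11 (pileup 21).

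The POLR2G peak (ENSG00000168002.12, plus strand) spanned the gene start in both lists, with its summit just upstream. It lay at chr11:62761180-62761773 in control and chr11:62761378-62761792 in sgSNHG1. Its fold enrichment was 6.61 and 8.32 from pileups of 24 and 28, a log2 ratio of 0.33 (SE 0.40). The peak narrowed from 594 to 415 bp while its fold enrichment was not lower, as at the SNHG1 and SLC3A2 promoter. With the scaled pileup the 2 differed in direction, at 0.58 for POLR2G and -0.06 for the SNHG1 and SLC3A2 pair. For both TAF6L and POLR2G the interval of the fold enrichment ratio included 0.

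**Figure D2:**
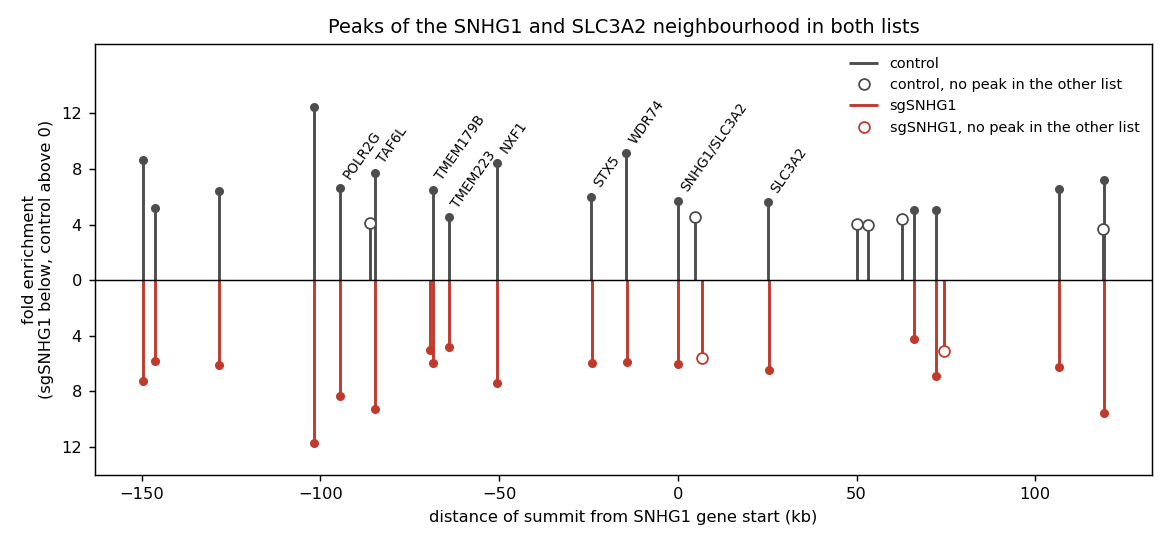
Fold enrichment of each peak in the neighbourhood, with control above 0 and sgSNHG1 below 0, against the distance of its summit from the SNHG1 start in kb. Open circles are peaks without a partner in the other list, of which there are 6 in control and 2 in sgSNHG1, and the highest peak of either list is that of ZBTB3 at 12.5 and 11.7.

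Over the 9 pairs at listed genes, heights moved in both directions. Of these pairs, 4 were lower in sgSNHG1, with a median log2 ratio of 0.08 (quartiles -0.12 and 0.21). Over all 31663 pairs the median was -0.05 (quartiles -0.27 and 0.17), and over the 16424 promoter pairs it was -0.07, with 59.2% of them lower. A fall of at least 0.5 was found for 1 of the 9 pairs, WDR74, and for 9.06% of all pairs. A rise of at least 0.5 was found for 0 of the 9 pairs and for 5.37% of all pairs. These counts depend on the scale, since with the scaled pileup 1 of the 9 pairs, POLR2G, was higher by at least 0.5 (0.58, against 11.2% of all pairs) and WDR74 was again the 1 lower by that much (11.8% of all pairs). In fold enrichment, with 9 pairs, 1 call is about what the background share gives.

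The shared SNHG1 and SLC3A2 promoter was then set against each neighbour by the difference of their log2 ratios. Relative to WDR74 it was higher by 0.72 (SE 0.47, interval -0.21 to 1.64). Relative to POLR2G, TAF6L and the downstream SLC3A2 start the differences were -0.25, -0.18 and -0.13, and relative to the TMEM223 start the difference was -0.01. Relative to STX5, TMEM179B and NXF1 they were 0.10, 0.21 and 0.28. All 8 intervals included 0, and the narrowest of them reached from -0.21 to 1.64, so differences of less than about 1 on the log2 scale could not be resolved.

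**Figure D3:**
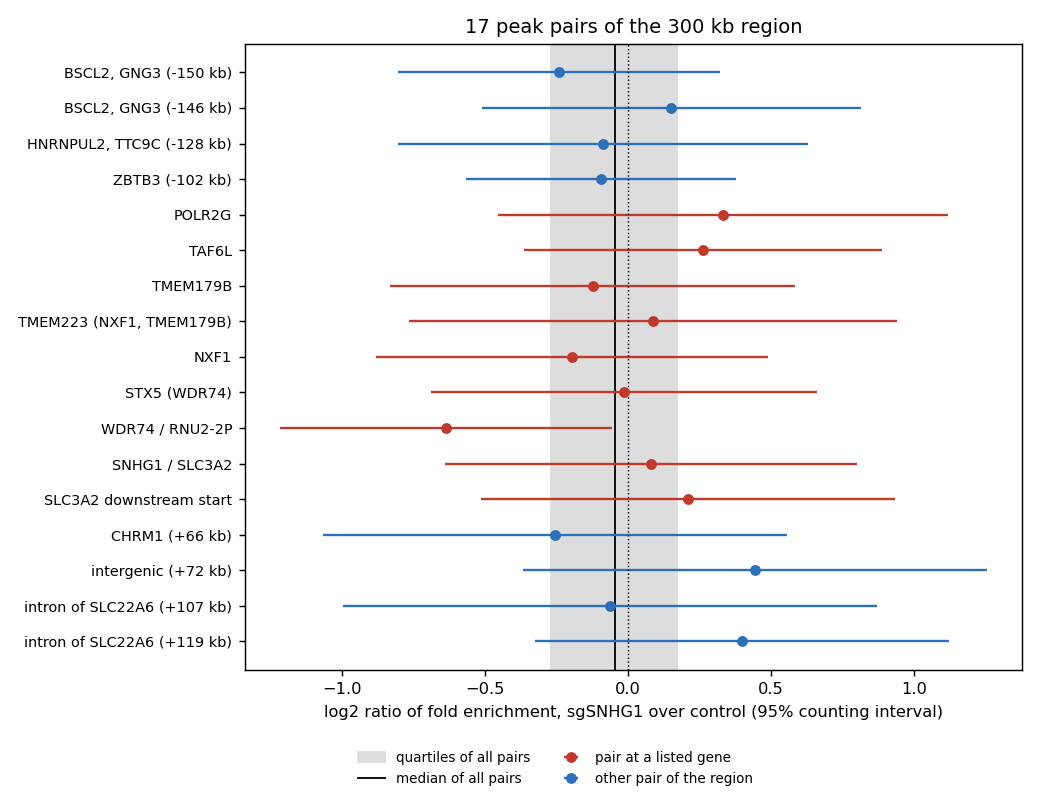
Ratio of fold enrichments on the log2 scale (sgSNHG1 over control) with its 95% counting interval for the 17 pairs of the 300 kb, from low to high coordinate, with pairs at listed genes in red and other pairs in blue (kb in brackets are distances from the SNHG1 start). The grey band spans the quartiles of all pairs, -0.27 to 0.17, and the interval of WDR74 / RNU2-2P, -1.22 to -0.06, is the one that leaves out 0.

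The rest of the 300 kb held 8 pairs at other genes or between genes. On the POLR2G side, ZBTB3, which encodes a zinc finger protein, had the highest peak of the neighbourhood, with fold enrichments of 12.5 and 11.7 from pileups of 80 and 65, a log2 ratio of -0.10. The 2 peaks at BSCL2 (seipin, a protein of lipid droplets) and GNG3 (a G protein gamma subunit) had log2 ratios of -0.24 and 0.15. The peak at HNRNPUL2 and TTC9C had a log2 ratio of -0.09. On the SLC3A2 side, the peak at CHRM1, a muscarinic acetylcholine receptor gene, went from 5.03 to 4.22, a log2 ratio of -0.25 (SE 0.41). An intergenic peak at chr11:62928143-62928266 in control had a log2 ratio of 0.44 (SE 0.41), the highest of the 17, and 2 peaks in introns of SLC22A6 had log2 ratios of -0.06 and 0.40. None of these 8 pairs passed a size of 0.5 in fold enrichment, but with the scaled pileup the intergenic pair (0.82) and the higher of the SLC22A6 pairs (0.50) did.

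Peaks of the neighbourhood were shared between the lists about as often as elsewhere, with intervals that include the shares over all peaks. In control 17 of 23 peaks (73.9%, Wilson interval 53.5 to 87.5) overlapped an sgSNHG1 peak, against 66.7% of all control peaks. In sgSNHG1 18 of 20 peaks (90.0%, interval 69.9 to 97.2) overlapped a control peak, against 78.2% of all. The 6 control peaks without a partner (26.1%, where 33.3% of all control peaks had none) included the TAF6L upstream peak and 4 peaks beyond SLC3A2, on an exon and an intron of CHRM1, in an intron of SLC22A6 and between genes, and the remaining 1 is not reported here. The 2 sgSNHG1 peaks without a partner (10.0%, where 21.8% of all had none) were the SLC3A2 intronic peak and an intergenic one at chr11:62930290-62930403 with a fold enrichment of 5.08. At the listed promoters 9 of 10 control peaks and 10 of 10 sgSNHG1 peaks were shared.

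The total length under peaks fell less here than in the genome. It went from 11065 bp to 8254 bp, a ratio of 0.746, against a ratio of 0.670 for all peaks. The median width was 402 and 357.5 bp, and the median fold enrichment was 5.71 and 6.05. Of the 17 pairs 11 were narrower, with a median log2 ratio of width of -0.23, against -0.42 over all pairs. With peaks limited to a -log10 q of at least 10 this median was -0.45.

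Along 1 Mb on either side the ratios were lower than inside the 300 kb. Of 53 pairs in these flanks 38 were lower in sgSNHG1 (71.7%, against 55.6% of all pairs), with a median of -0.15 (quartiles -0.31 and 0.07). By at least 0.5, 3 were lower and 2 higher, against 9.06% and 5.37% of all pairs. The 2 higher ones, at 0.91 and 0.64, lay just outside the 300 kb on the SLC3A2 side. Inside, 9 of 17 pairs were lower (52.9%), with a median of -0.01 (quartiles -0.12 and 0.21). The 2066 pairs of chromosome 11 had a median of -0.06, and 56.4% of them were lower. The median scaled background was higher in sgSNHG1 inside the 300 kb, at 0.12, than in the flanks, at 0.02, and with the scaled pileup the median inside was 0.12 against -0.11 in the flanks.

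**Figure D4:**
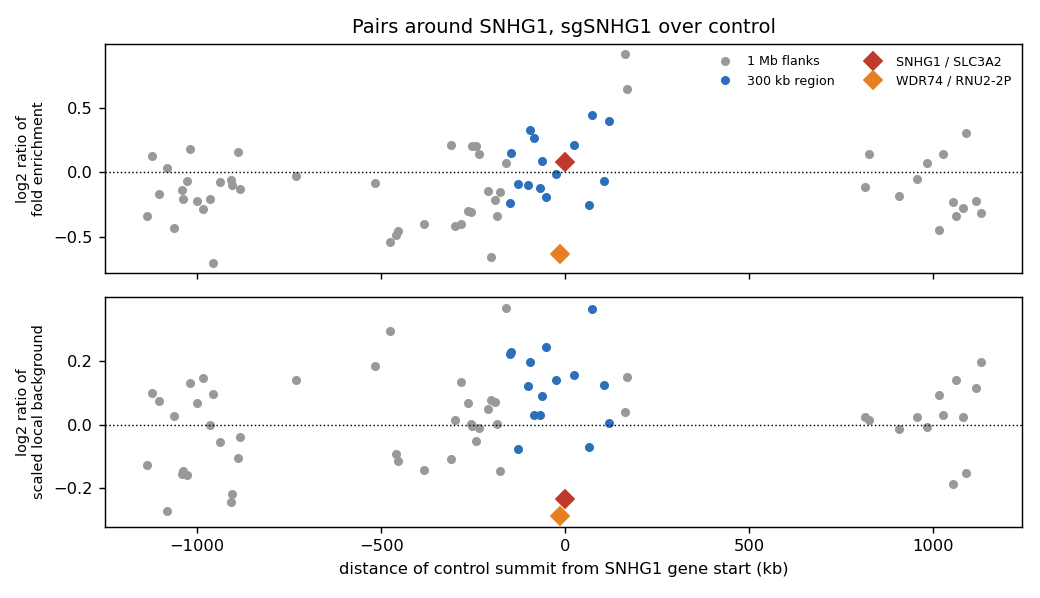
Log2 ratio (sgSNHG1 over control) of fold enrichment (upper panel) and of the scaled local background (lower panel) for the 17 pairs of the 300 kb (blue) and the 53 pairs of the 1 Mb flanks (grey), against distance from the SNHG1 start in kb. The SNHG1 / SLC3A2 pair (red) lies at 0.08 and -0.23 and the WDR74 / RNU2-2P pair (orange) at -0.64 and -0.29, and in the lower panel both lie below the other 15 pairs of the 300 kb.

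The promoters of the listed genes differed in sequence. RefSeq promoter windows, each spanning a start, were at hand for 7 of the 9 genes (10 windows), and 8 sets of letters were searched in them on both strands. A gene was counted if any of its windows held a match, whereas the percentages are per window. The gene counts and the percentages are therefore not directly comparable. The GC box GGGCGG was found for 6 of the 7 genes, WDR74 being the exception, and in 45.0% of all windows. CCAAT was found for SLC3A2, STX5 and TAF6L (34.6% of all windows), and TATAAA for NXF1 and SNHG1 (11.5%). The SNHG1 match to TATAAA lay downstream of the SNHG1 start, on the strand opposite to the gene. The E-box CACGTG was found for TAF6L (7.26%) and the ETS core CCGGAAG for WDR74 (10.3%). The CRE TGACGTCA (1.85% of all windows) and the YY1 letters AAGATGGCG (1.75%) were found for 0 of the 7 genes. The NRF1 core CGCATGCG was found for SNHG1 and SLC3A2 only, whose windows overlap and share both matches. The RefSeq WDR74 windows lie at the downstream starts, which were under no peak. The SNHG1 window had a GC content of 60.0%, and the median of all windows was 58.7%.

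Promoters elsewhere with a change of the same shape were found by the distance between their values and those of the SNHG1 pair, in log2 fold enrichment and log2 width of both lists, over 14306 genes. The nearest were CASZ1 (distance 0.14), ID1 (0.16), AHCY (0.16), DAB2IP (0.17) and TIPIN (0.17). The CASZ1 peak went from 417 to 178 bp with fold enrichments of 5.43 and 5.64, and the AHCY peak from 420 to 177 bp with fold enrichments of 5.46 and 5.50. A narrower peak of equal height was therefore also seen at promoters on other chromosomes.

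The products of the listed genes work with partners encoded elsewhere, whose promoters were examined in the same way. Each gene was given its highest promoter peak, and 17882 genes had a value in both lists. Of these genes 60.2% were lower in sgSNHG1, 7.51% were lower by at least 0.5 and 2.22% were higher by at least 0.5. The SLC7 light chains that pair with SLC3A2 were covered by both lists for 4 of 6 genes, by sgSNHG1 alone for 1 and by neither list for 1. Of the 4 with a ratio, 3 were lower (median log2 ratio -0.40). SLC7A5, which forms the large neutral amino acid transporter LAT1 with SLC3A2, was the lowest. It went from a fold enrichment of 5.79 to one of 3.88, a log2 ratio of -0.58 (SE 0.45), and the highest, SLC7A7, had a log2 ratio of 0.18 (SE 0.36). With peaks limited to a -log10 q of at least 10 the median turned to 0.18, the value of SLC7A7.

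The 29 other snoRNA host genes showed values on both sides of 0, as the listed genes did. Of 27 measured in both lists 15 were lower (median log2 ratio -0.05), where 60.2% of all genes were lower. A fall of at least 0.5 was found for 3 (7.51% of all genes) and a rise of that size for 0 (2.22% of all genes). The lowest was SNHG22, which went from 7.43 to 3.68, a log2 ratio of -1.02 (SE 0.56). The highest was SNHG18, from 6.06 to 7.95, a log2 ratio of 0.39 (SE 0.39). SNHG1, at 0.08, lay between them.

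The partners of TAF6L in the SAGA complex were lower in 10 of 10 genes measured in both lists, of 11 in the list. Of all genes measured in both lists, 60.2% were lower. The SAGA median log2 ratio was -0.27, and TAF6L itself was at 0.26 (SE 0.32). For 3 of these 10 SAGA genes, TAF12, SUPT7L and TRRAP, the highest peaks of the lists were at different places, so that the ratio is not a change at a single site. The SAGA ratios ran from TAF9, which went from 11.2 to 7.65, a log2 ratio of -0.54 (SE 0.35), to TADA1 at -0.03 (SE 0.19). Of the RNA polymerase II subunits beside POLR2G, 10 of 11 were measured in both lists and 7 were lower, with a median of -0.04, from POLR2E at -0.43 (SE 0.38) to POLR2F at 0.50 (SE 0.56). POLR2F went from 3.56 to 5.02.

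Of the mRNA export factors beside NXF1, 7 of 9 were lower, where 60.2% of all genes were, with a median of -0.16. DDX39B, the RNA helicase that hands mRNA to the export machinery, was the lowest, from 7.14 to 4.10, a log2 ratio of -0.80 (SE 0.36), and THOC5 was the highest at 0.18 (SE 0.31). Of the Golgi SNAREs beside STX5, 5 of 6 were measured in both lists and 3 were lower, with a median of -0.19, from BET1L at -0.55 (SE 0.36) to BET1 at 0.15 (SE 0.26). With the scaled pileup the medians of the RNA polymerase II subunits, the Golgi SNAREs and the other snoRNA host genes were above 0, at 0.05, 0.05 and 0.07.

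**Figure D5:**
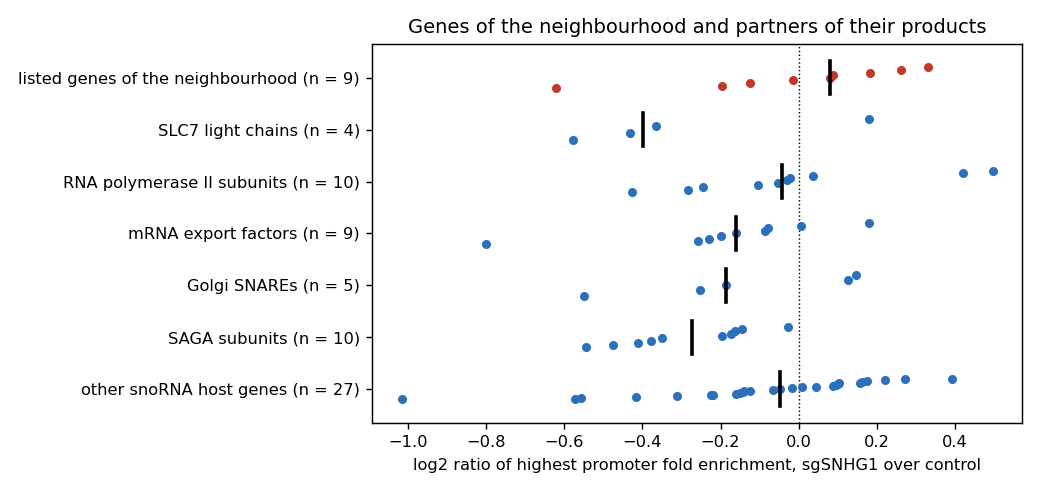
Log2 ratio (sgSNHG1 over control) of the highest promoter fold enrichment for the 9 listed genes (red) and for their partner lists (blue), 1 point per gene, with the median of each list as a black bar; for SLC3A2, WDR74 and 5 partner genes the highest peaks of the lists lie at different places. The listed genes have a median of 0.08 and the SAGA subunits, all below 0, a median of -0.27.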

How the data were processed

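ATAC-seq fragments of SK-N-BE(2)C cells, 2 control and 2 sgSNHG1 libraries, were trimmed with cutadapt and aligned to GRCh38 with BWA by the authors. They removed duplicates (GATK and Picard), multiply mapped, improperly paired, mitochondrial and blacklisted reads, shifted read ends for the Tn5 cut with deepTools, combined the replicates and called peaks with MACS2 in paired-end mode. Tool versions and the threshold are not given in the sources used here. No input library is described, so the local background came from the same fragments. Each deposited peak has a score (the -log10 q times 10), a fold enrichment (a ratio with a pseudocount of 1), a -log10 p with its q as -log10 q, and a summit position, all deposited by the authors per pooled list.

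Whole-number pileups and local backgrounds were solved from fold enrichment and -log10 p, within 0.001 of the deposited -log10 p for 47609 of 47610 control and 42682 of 42682 sgSNHG1 peaks, and for 100% of 20000 simulated peaks. Scaled values were divided by the smallest background of the list (2.20 and 1.72 fragments). Peaks overlapping by at least 1 bp were shared, and mutual best overlaps gave pairs. SEs and Wilson intervals (95%) cover counting error only. Genes came from GENCODE version 44, with promoters 3 kb on either side of any transcript start. Sequences came from GRCh38 and RefSeq. The alternatives were a -log10 q of at least 5 or 10, a mutual overlap of at least 50%, the scaled pileup, promoters of 1 kb or at the gene record's start alone, and 1 Mb added on either side. Named genes were the listed genes, other genes of the 300 kb with a promoter peak, the lowest and highest gene of each partner list, and the 5 genes most like SNHG1. Members, lists and motifs were chosen with earlier results of these data known. The 5 marker genes of the cell line were picked last, and 1 of them was left out after its values were seen. Some items are not reported here. Guide sequences are not printed. Python 3.11.15, numpy 2.4.6, pandas 2.3.3 and scipy 1.17.1 were used.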

Additional observations from a re-analysis of the deposited data

How the results depend on the processing

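Of 85 values recomputed under another setting, 6 changed direction and 1 count moved by more than 1.5 times. The other 78 kept their direction and stayed within the 95% counting interval of the value reported, or within 1.5 times for counts (for the median width, within 95% limits from the spread of the pairs). These limits are wide. The median log2 ratio of width over the 17 pairs went from -0.23 to -0.45 at a -log10 q of at least 10, that of fold enrichment from -0.01 to -0.12 with 1 Mb added, and the Golgi SNARE median from -0.19 to -0.03 at a -log10 q of at least 10. With peaks limited to a -log10 q of at least 10 the neighbourhood held 15 control peaks instead of 23, and the SLC7 light chain median went from -0.40 to 0.18. With the scaled pileup in place of fold enrichment the SNHG1 and SLC3A2 pair went from 0.08 to -0.056, the median over the 17 pairs from -0.01 to 0.12, and the medians of the RNA polymerase II subunits, the Golgi SNAREs and the other snoRNA host genes from -0.04, -0.19 and -0.05 to 0.048, 0.047 and 0.069. The scaled pileup leaves out the local background by construction. WDR74 stayed between -0.64 and -0.86. Under a mutual overlap of at least 50% the SNHG1 and SLC3A2 peaks no longer formed a pair, so that this setting gave no value for them. No paired analysis was possible because each list pools its replicates and its columns carry no replicate values, and for the same reason no replicate could be left out. Pileups of 17 to 80 fragments limit a log2 ratio to a counting error of about 0.24 to 0.48.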
